A study of Mus musculus with 6 samples.

Results

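The genes described here are 10 genes of hepatic glucose production: the transcription factors Foxo1 and Foxo3, their coactivator gene Ppargc1a (PGC-1alpha), and 7 genes of enzymes and a transporter that act in or feed gluconeogenesis (G6pc, Slc37a4, Pck1, Fbp1, Pcx, Sds and Tat). They were chosen by name, as factors and the enzymes they control, and were 10 of the 20416 genes measured. A gene's level was the mean log2 intensity of the probe sets that the platform annotation assigns to that gene alone. The 10 genes had 101 such probe sets of 212097, between 4 and 22 per gene, and all 10 passed the filter on dim genes, which left 15312 genes for testing.

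Hepatocytes came from miR-143DOX mice, which carry a doxycycline-inducible miR-143 allele, and from wildtype littermates (control), 3 adult C57BL/6 mice per group with 1 Affymetrix array each. Every mouse of both groups drank doxycycline at 4 mg/ml with 10% sucrose for 8 days, so the groups differ in the transgene and share the drug and the sugar. Cells were released by collagenase perfusion of the liver and frozen before RNA extraction. The promoter that drives the transgene, the feeding state and the hour of collection are not given in the sources used here. Levels of miR-143 were not analysed here.

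Gluconeogenesis makes glucose from lactate, glycerol and amino acids when food is absent, and in mammals the liver is its main site. FoxO1 is active in the nucleus while insulin is low. Insulin acts through the kinase AKT, which phosphorylates FoxO proteins and has them exported from the nucleus, so much of FoxO regulation leaves the FoxO transcripts themselves untouched. Glucagon raises cyclic AMP, which acts through CREB and induces Ppargc1a. PGC-1alpha then works with FoxO1 and HNF4alpha on G6pc and Pck1. The comparison asks whether transcripts of this axis differ between hepatocytes with and without the induced miR-143 transgene.

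None of the 10 genes differed between the groups at a 5% false discovery rate (FDR) in limma's moderated test over all 15312 genes, of which 0% passed (0 genes). At an unadjusted p under 0.05, Ppargc1a and Sds lay lower in miR-143DOX and 0 of the 10 lay higher, against 1.68% and 1.38% of all genes (3.06% in either direction). Of the 10 differences (miR-143DOX minus control), 7 lay below 0, against 47.6% of all genes tested. Their median was -0.09 on the log2 scale, against 0.01 for all genes. The groups overlapped in all 10, whereas they did not overlap in 3.73% of all genes with miR-143DOX lower and in 3.4% with miR-143DOX higher. In RNA from many cells together, fewer cells that express a gene and less RNA per cell cannot be told apart.

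**Figure D1:**
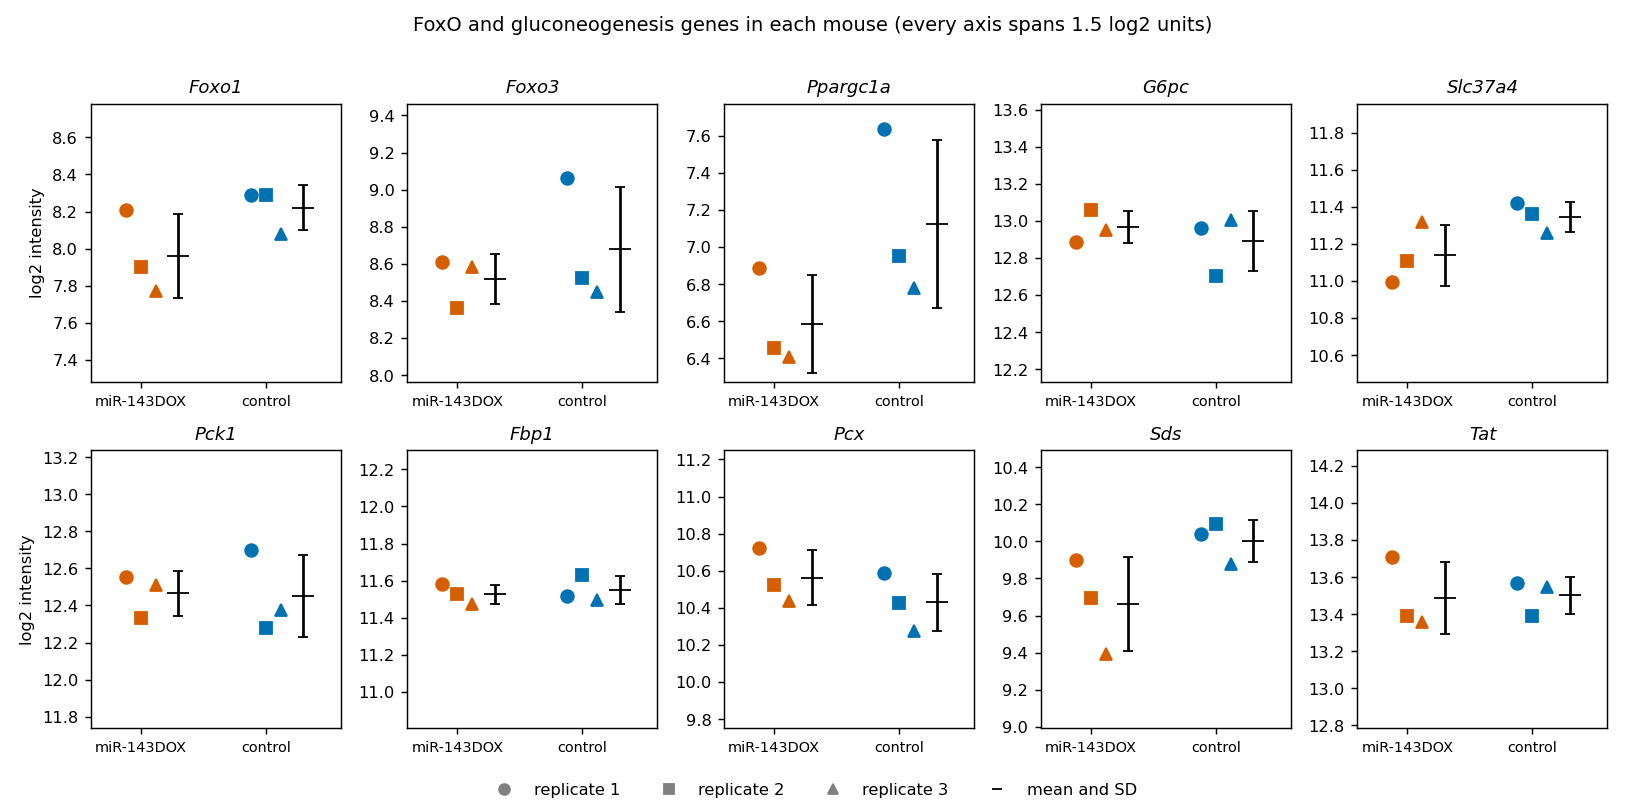
Log2 intensity of the 10 genes in each of the 6 mice, with miR-143DOX left and control right in each panel. Points are single mice, bars are group means with SD (n = 3 each), and every vertical axis spans the same number of log2 units. The groups overlap in every panel, and control replicate 1 lies highest for Foxo3, Ppargc1a, Slc37a4 and Pck1.

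The arrays carried the liver cell's own transcripts at high level. Albumin (Alb) measured 14.41 ± 0.08 in miR-143DOX and 14.37 ± 0.23 in control (log2, SD, n = 3 each), Apoa1 13.62 ± 0.12 in miR-143DOX and 13.78 ± 0.03 in control, and Ttr 13.27 ± 0.03 in miR-143DOX and 13.26 ± 0.12 in control. Across genes, any 2 arrays correlated at Pearson r between 0.982 and 0.990, where genes are not independent replicates. The mice differed in their clock genes. Dbp minus Arntl, a difference that runs through the day, was -1.25, 0.90 and 3.00 in miR-143DOX replicates 1 to 3, against 4.52, 0.26 and 0.85 in control replicates 1 to 3. The extremes were thus miR-143DOX replicate 1 and control replicate 1.

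Foxo1 is the FoxO factor with the best described role in hepatic glucose production. It measured 8.21, 7.90 and 7.77 in the miR-143DOX mice, against 8.29, 8.29 and 8.08 in the control mice (log2). Of the miR-143DOX values, 2 lay below every control value, and the one of replicate 1 lay among them. The group means were 7.96 ± 0.22 in miR-143DOX and 8.22 ± 0.12 in control (SD, n = 3 each). The difference of -0.26 (standard error 0.15, 95% interval -0.59 to 0.07) corresponds to 0.835-fold and did not pass (limma adjusted p = 0.9997, unadjusted p = 0.110). All 4 probe sets of Foxo1 lay lower in miR-143DOX, against 49.3% of all probe sets, by differences between -0.49 and -0.06. The dimmest of them, probe set 10491963, alone was separate between the groups, against 4.57% of all probe sets with miR-143DOX lower. It measured 5.71, 5.93 and 5.69 in miR-143DOX against 6.18, 6.47 and 6.13 in control. In limma over all probe sets its unadjusted p was 0.0587 and its adjusted p 0.9998. Without miR-143DOX replicate 3, the mouse with the lowest value, the Foxo1 difference was -0.17, and the median of its probe sets in place of their mean also gave -0.17.

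Foxo3 encodes the related factor known for its part in autophagy and stress resistance, with overlapping DNA binding. It measured 8.61, 8.36 and 8.58 in miR-143DOX mice, against 9.06, 8.52 and 8.45 in control mice (log2). Control replicate 1 stood above the other 5 mice, whose values intermingled. The difference was -0.16 (standard error 0.17, interval -0.54 to 0.22, limma adjusted p = 0.9997). It was 0.03 without control replicate 1, -0.09 with the clock difference as a covariate, and -0.01 without both mice at the clock extremes. Taking the median of its 5 probe sets gave -0.40. The other family members, Foxo4 and Foxo6, differed by 0.07 (standard error 0.16) and -0.05 (0.15).

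Ppargc1a showed the largest difference of the 10 genes and the widest interval. PGC-1alpha is a coactivator that fasting and glucagon induce in liver. Its RefSeq promoter window, from 250 bases before to 50 after a transcript start, is shown because the cAMP pathway acts on this gene. This start lies inside the gene's span, which reaches base 52115853 on the upstream side, and no other Ppargc1a start had a window. Whether hepatocytes use this start was not tested. Capitals mark ACGTCA, the core of a cAMP response element, which begins at position -50 from the start.
Ppargc1a promoter (chr5:51567676-51567975, GRCm38.p6, - strand): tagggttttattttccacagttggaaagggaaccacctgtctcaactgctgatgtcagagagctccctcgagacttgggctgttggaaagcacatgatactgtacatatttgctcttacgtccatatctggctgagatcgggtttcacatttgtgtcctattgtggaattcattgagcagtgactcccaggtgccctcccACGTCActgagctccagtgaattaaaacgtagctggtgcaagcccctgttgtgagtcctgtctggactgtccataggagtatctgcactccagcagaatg

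Ppargc1a measured 6.89, 6.45 and 6.41 in miR-143DOX mice, against 7.64, 6.95 and 6.78 in control mice (log2). Only miR-143DOX replicate 1 and control replicate 3 were out of order, so the groups overlapped by that pair. The means were 6.58 ± 0.26 in miR-143DOX and 7.12 ± 0.45 in control (SD, n = 3 each), a difference of -0.54 (standard error 0.22, 95% interval -1.01 to -0.07), or 0.687-fold. By unadjusted p (0.0278) the gene ranked 235 of 15312, and its limma adjusted p was 0.9997. Of its 16 probe sets, 14 lay lower in miR-143DOX, against 49.3% of all probe sets below 0, and 1 of the 16 was separate between the groups, against 4.57% of all probe sets with miR-143DOX lower. Over the 101 probe sets of the 10 genes, an unadjusted p under 0.05 was found for 4 with miR-143DOX lower and for 0 with it higher, against 2.25% and 2.21% of all probe sets. Of the 101, 11 were separate between the groups with miR-143DOX lower and 3 with miR-143DOX higher, against 4.57% and 4.52% of all probe sets. Probe sets of a gene read the same RNA and are not replicates.

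The size of the Ppargc1a difference varied with the probe sets and mice used. With single probe sets left out in turn, it ran from -0.59 to -0.45. Probe set 10529990 measured 7.53, 7.07 and 7.48 in miR-143DOX mice, against 11.99, 7.23 and 7.87 in control mice (log2), so control replicate 1 stood 4.12 above the next array. The next such gap among all 101 probe sets of the 10 genes was 1.75. With that probe set left out, a check added after its values were seen, the gene measured 6.84, 6.41 and 6.34 in miR-143DOX against 7.35, 6.93 and 6.71 in control. The difference was then -0.47 (standard error 0.19, interval -0.88 to -0.05, limma unadjusted p = 0.0299 and adjusted p = 0.9997). Leaving out instead the dim probe set 10529989, which measured 3.26, 5.97 and 2.74 in miR-143DOX against 5.64, 6.24 and 5.96 in control, gave -0.45. With both dim probe sets of the gene left out the difference was -0.44 and its unadjusted limma p was 0.134. Without control replicate 1 altogether it was -0.28 (limma unadjusted p = 0.135), and with the brightest probe set alone it was -0.18. It was -0.49 with the clock covariate and -0.44 without both mice at the clock extremes. Its sign was negative in all 18 alternative settings, and 0 of them passed 5% FDR (11 at an unadjusted p under 0.05).

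**Figure D2:**
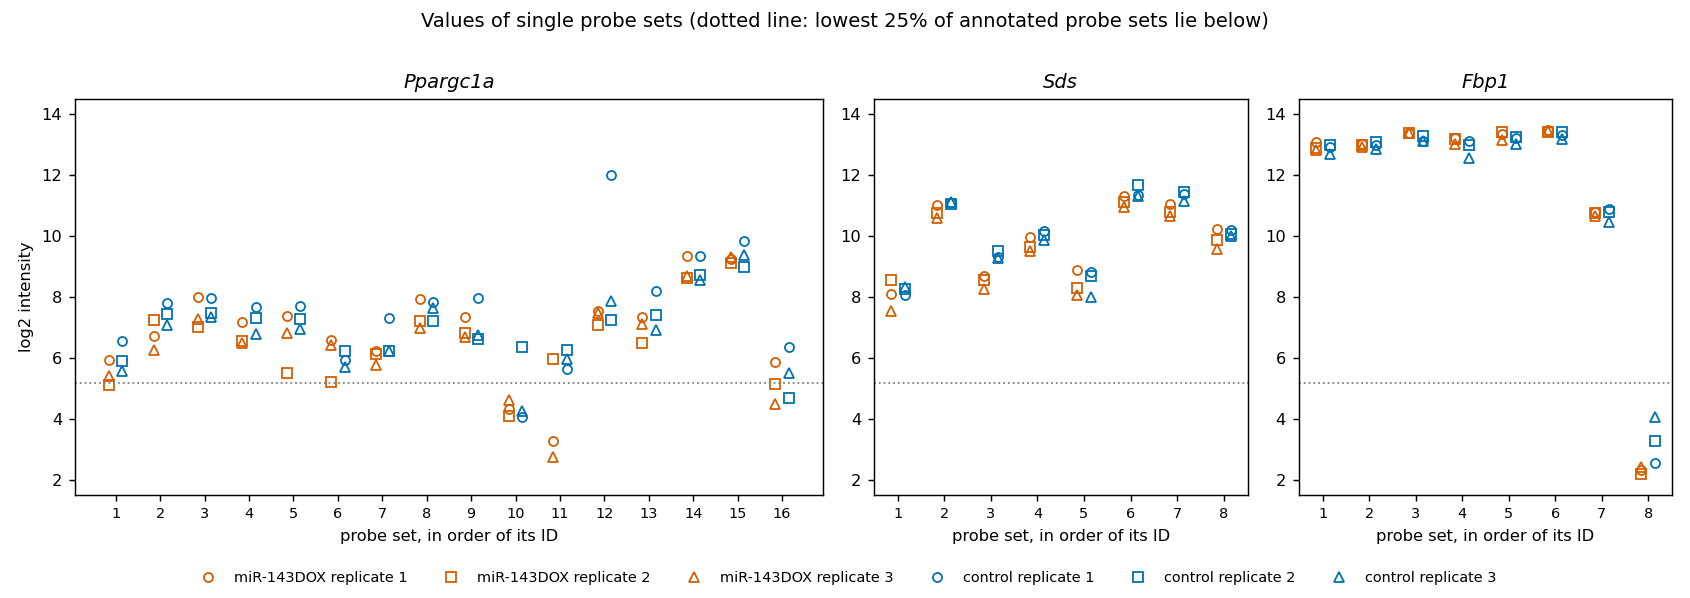
Log2 intensity of every probe set of Ppargc1a, Sds and Fbp1 in each mouse, with miR-143DOX points left of control points. The single control value of 11.99 stands apart at the twelfth Ppargc1a position, and the last Fbp1 probe set lies far below the others, under the dotted line at 5.16.

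G6pc encodes the catalytic subunit of glucose-6-phosphatase, which releases free glucose as the last step of gluconeogenesis. Its promoter is a textbook site of insulin repression through FoxO1. In the window below, capitals mark TGTTTTG, the reverse strand of CAAAACA, the core of the insulin response element, whose first base is at position -174 from the start.
G6pc promoter (chr11:101367466-101367765, GRCm38.p6, + strand): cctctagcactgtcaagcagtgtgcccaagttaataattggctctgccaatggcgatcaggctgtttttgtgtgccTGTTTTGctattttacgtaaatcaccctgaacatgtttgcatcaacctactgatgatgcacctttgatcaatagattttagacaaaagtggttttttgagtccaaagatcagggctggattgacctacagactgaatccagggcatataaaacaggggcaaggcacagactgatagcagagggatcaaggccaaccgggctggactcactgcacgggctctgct

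G6pc measured 12.89, 13.06 and 12.95 in miR-143DOX mice, against 12.96, 12.70 and 13.003 in control mice (log2). The values intermingled, with control replicate 2 the lowest of the 6. The difference was 0.08 (standard error 0.14), or 1.05-fold, with a 95% interval of 0.855-fold to 1.30-fold (limma adjusted p = 0.9997). Its 6 probe sets lay close together in their differences, between -0.01 and 0.14, and 5 of them were above 0 (50.7% of all probe sets). Of the 6, 1 was separate with miR-143DOX higher, against 4.52% of all probe sets. Without control replicate 2 the G6pc difference was -0.02.

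Slc37a4 encodes the transporter that carries glucose-6-phosphate into the endoplasmic reticulum, where G6pc acts. It measured 10.99, 11.10 and 11.32 in miR-143DOX mice, against 11.42, 11.36 and 11.26 in control mice (log2). Only miR-143DOX replicate 3 reached into the control range. The difference was -0.21 (standard error 0.14, interval -0.51 to 0.09, limma adjusted p = 0.9997). Of its 9 probe sets 8 lay lower in miR-143DOX (49.3% of all probe sets) and 4 were separate in that direction (4.57% of all). Much of the mean difference came from the dim probe set 10584742, with 3.93, 4.36 and 5.23 in miR-143DOX against 5.52, 5.65 and 5.36 in control, whose mean level is in the lowest 25% of probe sets. Without it the Slc37a4 difference was -0.11 (standard error 0.13). It was -0.10 without both mice at the clock extremes. The pair of genes that complete glucose release therefore had differences on opposite sides of 0, neither past the test.

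Pck1 encodes the cytosolic phosphoenolpyruvate carboxykinase, which turns oxaloacetate into phosphoenolpyruvate and answers strongly to cyclic AMP. The capitals in its promoter window mark the same ACGTCA core, which begins at position -91.
Pck1 promoter (chr2:173152823-173153122, GRCm38.p6, + strand): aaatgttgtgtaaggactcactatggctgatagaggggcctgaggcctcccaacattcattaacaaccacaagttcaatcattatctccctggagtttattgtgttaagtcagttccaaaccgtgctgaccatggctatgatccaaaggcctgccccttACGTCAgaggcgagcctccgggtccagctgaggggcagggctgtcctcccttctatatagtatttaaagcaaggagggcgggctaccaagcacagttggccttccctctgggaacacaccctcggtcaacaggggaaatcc

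Pck1 measured 12.55, 12.33 and 12.51 in miR-143DOX mice, against 12.70, 12.28 and 12.37 in control mice (log2). Control mice held both the highest and the lowest value. The difference was 0.02 (standard error 0.15), or 1.01-fold, with a 95% interval of 0.806-fold to 1.27-fold (limma adjusted p = 0.9997). Its 10 probe sets were split evenly, 5 below and 5 above 0. With the brightest of them alone the Pck1 difference was 0.20. Over single arrays left out it ran between -0.07, without control replicate 2, and 0.14, without control replicate 1. The cytosolic gene's mitochondrial counterpart, Pck2, differed by -0.08 (standard error 0.14).

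Across the RefSeq windows of all genes, 6.28% held CAAAACA on either strand, 7.51% held ACGTCA and 3.65% held GTAAACA, the core of the FoxO binding element. The table had windows for 9 of the 10 genes, 12 in all, with several starts for Slc37a4 and Pcx. CAAAACA was found in the window of 1 gene (G6pc), ACGTCA in those of 3 (Ppargc1a, Slc37a4 and Pck1), and GTAAACA in 0, with no overlap between matches. A match is a string of letters, and a window without one says only that these letters are not in it.

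Pcx, pyruvate carboxylase, makes oxaloacetate in mitochondria from pyruvate. It measured 10.72, 10.52 and 10.44 in miR-143DOX mice, against 10.59, 10.42 and 10.28 in control mice (log2). The ranges overlapped, with the highest value in a miR-143DOX mouse and the lowest in a control mouse. The difference was 0.13 (standard error 0.14, interval -0.18 to 0.44, limma adjusted p = 0.9997), and 19 of its 22 probe sets lay above 0, against 50.7% of all probe sets. Of the 22, 1 was separate with miR-143DOX lower and 0 with it higher, against 4.57% and 4.52% of all probe sets. Leaving out miR-143DOX replicate 1 gave 0.05. Leaving out control replicate 3 gave 0.06, and control replicate 1 gave 0.21.

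Fbp1, fructose-1,6-bisphosphatase, catalyses the step opposite to phosphofructokinase and its 6 values spanned 0.158. It measured 11.58, 11.53 and 11.48 in miR-143DOX mice, against 11.52, 11.63 and 11.49 in control mice (log2). The difference was -0.02 (standard error 0.13, interval -0.30 to 0.26, limma adjusted p = 0.9997). This mean hid a split. Of its 8 probe sets 7 lay above 0, against 50.7% of all probe sets, and 2 were separate with miR-143DOX higher (4.52% of all). The very dim probe set 10410015 was separate with miR-143DOX lower (4.57% of all). It stood at 2.30, 2.18 and 2.41 in miR-143DOX against 2.55, 3.27 and 4.05 in control. Without that probe set the Fbp1 difference turned to 0.12 (standard error 0.14, interval -0.19 to 0.42), with 12.85 ± 0.07 in miR-143DOX and 12.73 ± 0.15 in control (SD, n = 3 each). Neither version passed.

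Sds and Tat break down amino acids whose carbon enters gluconeogenesis. Sds, serine dehydratase, makes pyruvate from serine. Tat, tyrosine aminotransferase, starts tyrosine breakdown and is a classic target of glucocorticoids. Sds measured 9.90, 9.69 and 9.39 in miR-143DOX mice, against 10.04, 10.09 and 9.88 in control mice (log2). The groups overlapped only where miR-143DOX replicate 1 lay just above control replicate 3. The means were 9.66 ± 0.26 in miR-143DOX and 10.00 ± 0.11 in control (SD, n = 3 each). The difference of -0.34 (standard error 0.15, 95% interval -0.68 to -0.002) corresponds to 0.790-fold and ranked 453 of 15312 by unadjusted p (0.0487, limma adjusted p = 0.9997).

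All 8 probe sets of Sds lay lower in miR-143DOX (49.3% of all probe sets), and 3 of them were separate between the groups (4.57% of all). The most distinct was probe set 10525079, with 8.67, 8.56 and 8.26 in miR-143DOX mice against 9.30, 9.52 and 9.27 in control mice (difference -0.87, standard error 0.22). In the same limma test run on all 212097 probe sets it had an unadjusted p = 0.00557 and an adjusted p = 0.9998, and 0% of probe sets passed 5% FDR (0, with 4.46% at an unadjusted p under 0.05). Without it the Sds difference was -0.27. Without miR-143DOX replicate 3 it was -0.21, and its sign was negative in all 18 alternative settings. In limma 0 of these settings passed 5% FDR and 10 had an unadjusted p under 0.05, with 0.190 the largest. Tat measured 13.71, 13.39 and 13.36 in miR-143DOX mice, against 13.57, 13.39 and 13.55 in control mice. Its difference of -0.02 (standard error 0.14, interval -0.33 to 0.30) lay within the spread between mice, and its 13 probe sets were divided, 7 below and 6 above 0.

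**Figure D3:**
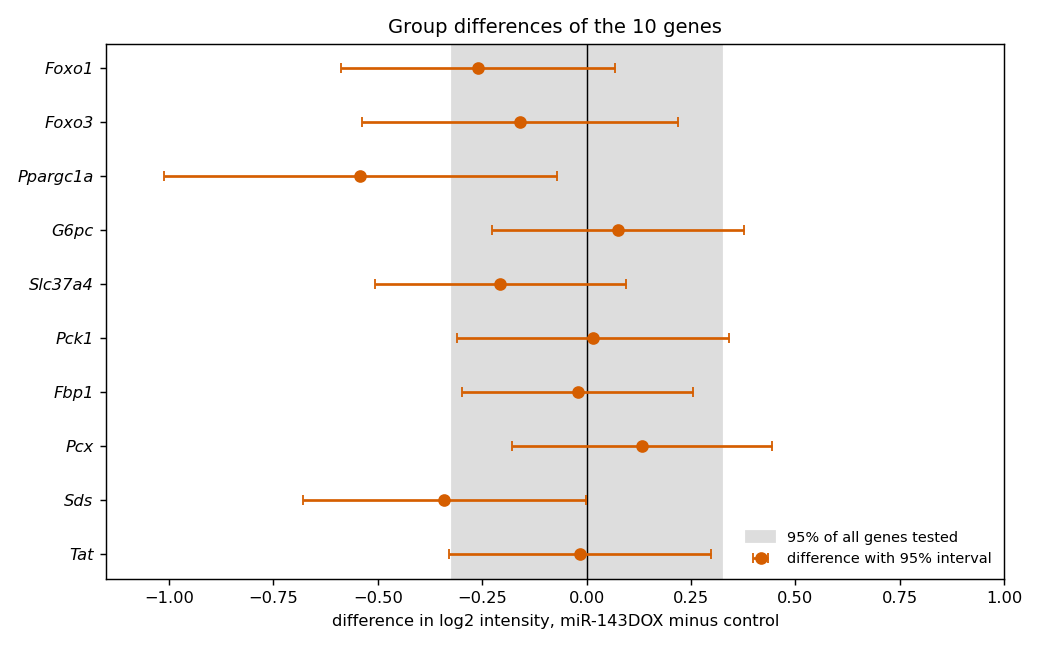
Difference in log2 intensity, miR-143DOX minus control, with its 95% interval from limma for each of the 10 genes. The shaded band, from -0.32 to 0.32, holds the differences of 95% of all genes tested. Ppargc1a at -0.54 and Sds at -0.34 lie outside it, and their intervals alone leave out 0.

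**Figure D4:**
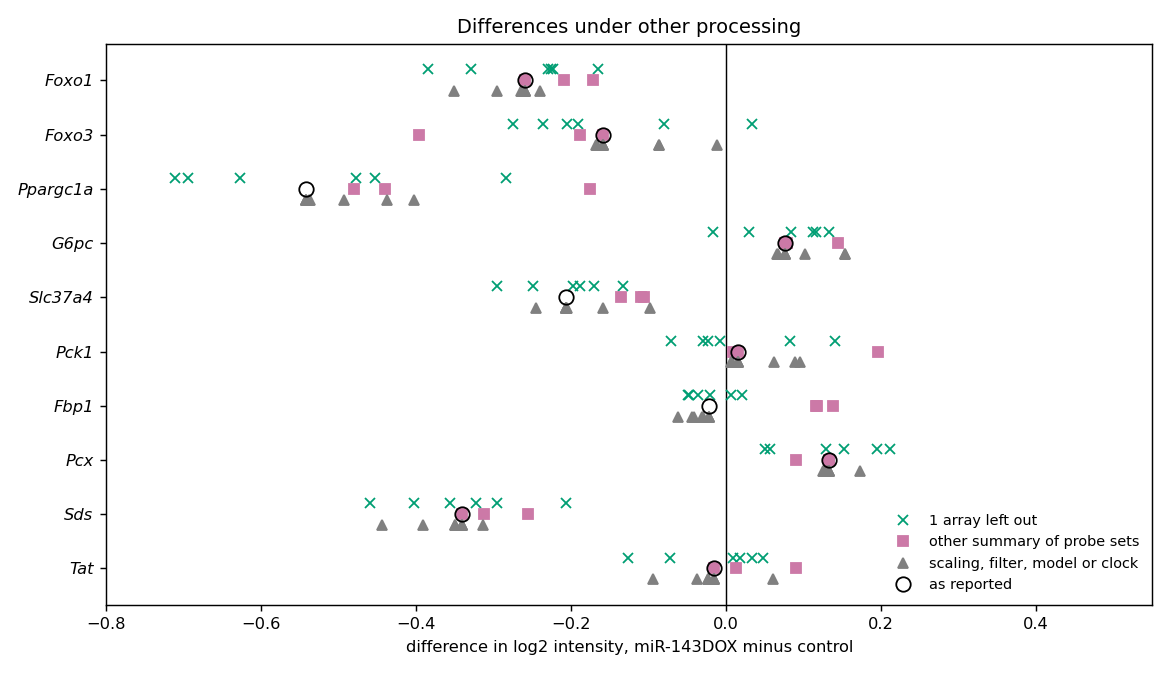
The same differences recomputed with 1 array left out, with other summaries of the probe sets, and with other scaling, filters, models or the clock difference. Ppargc1a, Sds, Foxo1 and Slc37a4 stay below 0 and Pcx above 0 in every setting drawn, while Foxo3, G6pc, Pck1, Fbp1 and Tat have values on both sides of 0.

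Across the 6 mice, some pairs of these genes had high correlations, over few arrays. Of 45 pairs among the 10 genes, 33 had a Pearson r above 0, and 0 passed after Benjamini-Hochberg adjustment (5 at an unadjusted exact permutation p under 0.05). Foxo1 and Sds were closest, at r = 0.968 (exact two-sided permutation p = 0.00139, adjusted p = 0.0625) and Spearman rho = 1 (p = 0.00278, adjusted 0.125). These are the smallest p-values that 720 pairings allow. Over 45 pairs, 1 pair alone could therefore not pass 5% after adjustment, however close its relation. Their r was 0.877 without the 2 mice farthest from the median of Foxo1 and 0.945 with each group centred on its own mean. Foxo1 and Ppargc1a had r = 0.831 (exact permutation p = 0.0292, adjusted 0.425), rho = 0.943 (p = 0.0167, adjusted 0.250) and r = 0.630 without the 2 farthest mice. With each group centred on its own mean, their r was 0.699. G6pc and Fbp1 had r = -0.825 (exact permutation p = 0.0444, adjusted 0.425), rho = -0.486 (p = 0.356, adjusted 0.762) and r = -0.785 without the 2 farthest mice, but r = -0.237 with medians of probe sets. Foxo1 and G6pc had r = -0.574 (exact permutation p = 0.243, adjusted 0.823), rho = -0.543 (p = 0.297, adjusted 0.762) and r = -0.616 without the 2 farthest mice. Foxo1 and Pck1 had r = 0.185 (exact permutation p = 0.718, adjusted 0.898), rho = -0.03 (p = 1, adjusted 1) and r = 0.263 without the 2 farthest mice.

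Foxo3 and Pck1 had r = 0.866 (exact permutation p = 0.0125, adjusted 0.281), rho = 0.829 (p = 0.0583, adjusted 0.656) and r = 0.722 without the 2 farthest mice. With each group centred on its own mean, their r was 0.948. Foxo3 and Ppargc1a had r = 0.861 (exact permutation p = 0.0472, adjusted 0.425), rho = 0.543 (p = 0.297, adjusted 0.762) and r = -0.214 without the 2 mice farthest from the median of Foxo3. Their r thus depended on those mice. It was 0.896 with each group centred on its own mean and 0.816 with medians of probe sets. Against the clock difference, 0 of 10 relations passed after adjustment, and the smallest exact permutation p was 0.0944 for Slc37a4 (r = 0.751, adjusted p = 0.688), where rho was 0.600 (p = 0.242, adjusted 0.806) and r without the 2 farthest mice was 0.143.

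By the same measure, over 15311 other genes and 6 arrays, the genes whose pattern was most like that of Foxo1 were Lamb1-1 (r = 0.991), 5730403B10Rik (0.989) and Spnb1 (0.982). For Ppargc1a they were Bloc1s2 (0.995), Rps13 (0.990) and Gm5697 (0.988), for G6pc Fst (0.987), Arhgap19 (0.983) and Plekhg5 (0.981), and for Pck1 Agbl5 (0.999), Trim56 (0.989) and Polr1d (0.985). These are the highest of many values over few arrays, given as a description. None of the 10 genes was among them.

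Of 25 other genes of gluconeogenesis, mostly enzymes it shares with glycolysis and shuttles of its precursors, 22 were tested and 0 passed 5% FDR in limma. At an unadjusted p under 0.05 there was 1 gene, Gpd1, higher in miR-143DOX, against 1.38% of all genes. Of the 22 differences 18 lay above 0 (52.4% of all genes), with a median of 0.10, and with single arrays left out the median ran between 0.02 and 0.16. Gpd1, the cytosolic glycerol-3-phosphate dehydrogenase through which glycerol enters, measured 10.18, 10.08 and 10.02 in miR-143DOX mice against 9.63, 9.96 and 9.67 in control mice (difference 0.34, standard error 0.14). The groups were separate in Gpd1 and in 4 more of the 22, which makes 4 higher and 1 lower in miR-143DOX, against 3.4% and 3.73% of all genes. Pgk1 and Eno1, which act in both directions of the pathway, differed by 0.32 (standard error 0.16) and 0.23 (0.13). Gpt, an alanine aminotransferase that makes pyruvate from alanine, differed by -0.27 (0.14), and Fbp2, the muscle type fructose-bisphosphatase, by 0.23 (0.14).

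Of 26 further FoxO family members and genes under FoxO control, 25 were tested. None passed 5% FDR in limma, and the count at an unadjusted p under 0.05 was 0 as well, against 3.06% of all genes. Their median difference was 0.04, with 16 above 0 and 9 below, and ran from -0.04 to 0.11 with single arrays left out. Igfbp1, which encodes an insulin-repressed binding protein of insulin-like growth factors, measured 11.44, 10.94 and 10.94 in miR-143DOX mice against 11.13, 10.98 and 11.47 in control mice, which intermingled (difference -0.09, standard error 0.18). Irs2, the insulin receptor substrate that FoxO1 induces, differed by 0.16 (0.20). Pdk4, a kinase that holds back pyruvate oxidation in fasting, measured 7.64, 6.23 and 5.94 in miR-143DOX against 5.64, 6.20 and 5.91 in control. The difference was 0.69 (standard error 0.34), and miR-143DOX replicate 1, the mouse at the low clock extreme, stood above the other 5. The groups were separate in 2 of the 25 with miR-143DOX higher, among them Sesn3 (0.29, standard error 0.14). They were separate in 1 with miR-143DOX lower, against 3.4% of all genes higher and 3.73% lower. The insulin receptor gene Insr differed by -0.34 (0.18), and Gm6484, the array's name for Angptl8, by 0.59 (0.37).

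**Figure D5:**
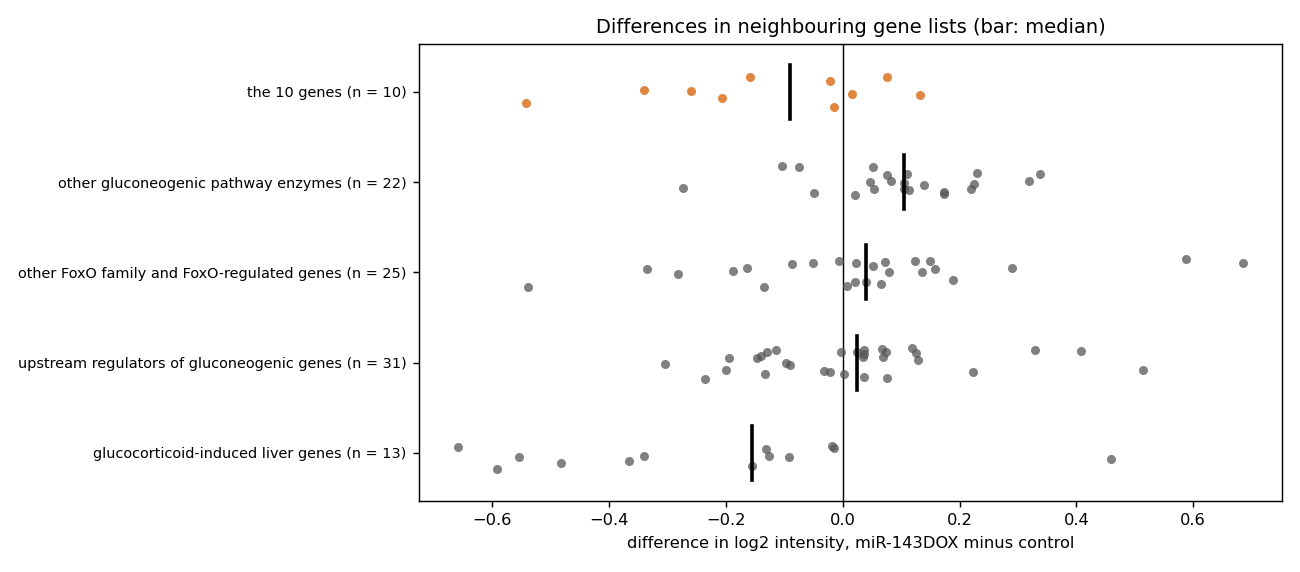
Differences in log2 intensity, miR-143DOX minus control, of the 10 genes (top) and of every tested gene in 4 neighbouring lists. Each point is a gene and each bar a median: -0.09 for the 10 genes, then 0.10, 0.04, 0.02 and -0.16 from top to bottom.

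Regulators upstream of these genes (glucagon and cAMP signalling, CREB and its partners, nuclear receptors, salt-inducible and AMP-activated kinases) numbered 31 tested of 32, with 17 differences above 0 and 14 below. The median of 0.02 was -0.05 without miR-143DOX replicate 3 and -0.06 with medians of probe sets. In limma 0 genes passed 5% FDR, while at an unadjusted p under 0.05 there were 2 above and 1 below 0, against 3.06% of all genes. Pde4b, a phosphodiesterase that breaks down cyclic AMP, differed by 0.41 (standard error 0.17). Nr4a2 and Nr4a1, nuclear receptors induced by cyclic AMP, differed by 0.33 (0.14) and 0.51 (0.29), and the CREB coactivator gene Crtc3 by -0.31 (0.14). The groups were separate in 3 of the 31, with Nr4a2 higher and Crtc3 and Crtc2 (-0.14, standard error 0.13, named after its value was seen) lower in miR-143DOX, against 3.4% of all genes higher and 3.73% lower.

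Of 13 glucocorticoid-induced liver genes, a list that includes Tat, 12 lay below 0 and 1 above, against 47.6% of all genes below 0, with a median of -0.16. In limma 0 passed 5% FDR, and 3 had an unadjusted p under 0.05 (2 below and 1 above 0), against 3.06% of all genes. Tsc22d3, which encodes the anti-inflammatory protein GILZ, measured 8.07, 7.11 and 6.69 in miR-143DOX mice against 7.63, 7.84 and 8.37 in control mice (difference -0.66, standard error 0.30). Lcn2 differed by -0.55 (0.21), the metallothionein gene Mt1 by -0.48 (0.27), and the phosphatase gene Dusp1 by 0.46 (0.19). Leaving out miR-143DOX replicate 1 moved the list's median to -0.34, and leaving out miR-143DOX replicate 3 moved it to -0.09. Leaving out both mice at the clock extremes, a choice made after seeing the data, gave -0.43.

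Pck1 and Sds are expressed mainly by hepatocytes near the portal vein. The 15 periportal genes tested, which include both, had a median difference of 0.02 (6 below 0, 9 above), which was -0.03 without both mice at the clock extremes, and a mean level between 10.74 and 10.85 in miR-143DOX mice, against 10.76 to 10.84 in control mice. Beside Sds the list held Agxt2l1 (0.28, standard error 0.13), Ctsc (0.25, 0.18) and Ifitm3 (-0.13, 0.13). The 14 pericentral genes had a median of -0.05, which moved to -0.20 when miR-143DOX replicate 2 was left out and to 0.03 when control replicate 1 was, with -0.49 (0.15) for Cyp1a2, -0.41 (0.13) for Lect2, -0.34 (0.15) for Gulo and -0.33 (0.17) for Slc1a2. The 16 clock genes had a median of -0.13, with -0.56 (0.57) for Dbp and 0.43 (0.52) for Arntl, and Hlf, Nr1d1, Per1 and Per2 at -0.29 (0.14), 0.33 (0.18), -0.34 (0.22) and -0.43 (0.29). In these 3 lists 0 genes passed 5% FDR in limma. At an unadjusted p under 0.05 there were 1, 2 and 0, all lower, against 1.68% of all genes. The groups were separate with miR-143DOX lower in 1, 2 and 1 genes and higher in 1, 0 and 0, against 3.73% and 3.4% of all genes.

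Among markers of other liver cells 0 genes passed 5% FDR in limma. At an unadjusted p under 0.05, 1 endothelial and 1 cholangiocyte marker lay lower, against 1.68% of all genes. The 10 sinusoidal endothelium markers lay lower in 9 cases, against 47.6% of all genes below 0. They had a median of -0.11 and a mean level of 7.12 to 7.65 in miR-143DOX, against 7.43 to 7.59 in control. Leaving out miR-143DOX replicate 1 moved that median to -0.25, and leaving out replicate 2 of the same group moved it to 0.04. Medians were 0.07 for 10 Kupffer cell markers, 0.06 for 10 stellate cell markers, 0.10 for 5 of 6 cholangiocyte markers and 0.02 for 12 hepatocyte markers. With single arrays left out they ran from -0.01 to 0.14 for Kupffer cells, 0.01 to 0.17 for stellate cells, -0.08 to 0.14 for cholangiocytes and -0.07 to 0.06 for hepatocytes. The cholangiocyte median was -0.11 with the lowest 50% of genes left out and -0.10 when each gene was read from its brightest probe set alone. The markers of B cells (3 of 6 tested), T and NK cells (4 of 7), neutrophils (2 of 6) and erythroid cells (2 of 5) had medians of 0.13, 0.05, 0.04 and 0.01. The mean level of each of these lists overlapped between the groups except that of the dim B cell markers (5.33 to 5.42 in miR-143DOX, 5.21 to 5.27 in control), whose median turned to -0.11 when each gene was read from its brightest probe set alone. Their part in the values of the 10 genes was not tested.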

How the data were processed

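RNA of hepatocytes from 3 miR-143DOX and 3 control mice was read on Affymetrix arrays, 1 per mouse, which were separate animals per the labels. The authors deposited log2 values per probe set for 234873 probe sets. The log2 scale was inferred from their span, 1.60 to 15.2. Partek was used, per the submitters' processing notes, which give no version. Background correction, normalization and genome build are not given in the sources used here.

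Since the 95th percentiles of the arrays differed by 0.135, the values were quantile normalized. Probe sets with a single gene symbol were averaged per gene, and the 25% of genes with the lowest means (under 5.06) were left out. No detection call was used, so a dim value cannot be told from background, and precision is limited by how many arrays there are. The test was limma (version 3.58.1, R 4.3.3), two-sided, with group as the sole term and moderated by eBayes; p-values were adjusted by Benjamini and Hochberg across every tested gene. Intervals are 95% intervals of that fit. Correlations used all 720 pairings of the 6 mice. The limma fit after quantile normalization was tested on simulated gene values. Of the gene list symbols, some were matched through RefSeq synonyms. Promoter windows are RefSeq's. Named list genes were a fixed set plus the 4 with the smallest unadjusted p per list.

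The 10 genes, the lists and the alternatives were chosen with earlier results of these data known. Alternatives changed the scaling, the filters, the summary of probe sets, the model and the arrays included. Probe sets shared by several genes were left out, and listed genes with no matched symbol were not analysed here.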

Additional observations from a re-analysis of the deposited data

How the results depend on the processing

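Over 18 other settings, 1 of them chosen after seeing the data, 0 of 180 values of the 10 genes passed 5% FDR in limma (lowest adjusted p = 0.676), and 162 kept their direction. Ppargc1a, Sds, Foxo1, Slc37a4 and Pcx kept it in all 18. Most of the 18 turns in direction concerned differences near 0. With single arrays left out, Foxo3 ran from -0.27 to 0.034, G6pc from -0.017 to 0.13, Pck1 from -0.071 to 0.14, Fbp1 from -0.049 to 0.020 and Tat from -0.13 to 0.047. With the median of probe sets, Fbp1 turned to 0.12 and Tat turned to 0.013. With the brightest probe set, Fbp1 turned to 0.14 and Tat turned to 0.090. Without dim probe sets Fbp1 turned to 0.12, and with array weights Tat turned to 0.060. The median over the 10 genes ran from -0.15 to -0.01, both with single arrays left out. Genes past 5% FDR numbered 0 in every setting except without both mice at the clock extremes, where 1 passed (Dcpp1, at -1.45, adjusted p = 0.0465, named after its value was seen). Genes at an unadjusted p under 0.05 numbered 469 in the reported test, 299 with the lowest 50% of genes left out, 1021 with array weights, and 298 to 1128 with single arrays left out. With the replicate number as a block they numbered 734, and 0 passed 5% FDR. Deviations from the group mean correlated at r = 0.107, 0.0468 and 0.296 across genes for mice that share replicate number 1, 2 and 3. Number 1 correlated better with another number, while numbers 2 and 3 did not. Whether mice that share a number were handled together was not tested. With 3 mice per group differences of these 10 genes had 95% intervals reaching 0.277 to 0.471 on either side, and values of dim probe sets lie near background.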
